A study of Homo sapiens with 4 samples.

Results

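The genes of glycolysis and of the response to low oxygen were examined in BEAS2B cells with and without knockdown of *QKI*, which encodes an RNA-binding protein of the STAR family. The members are 40 genes chosen by symbol for what their products do, with earlier results of these data known. Of these, 20 act in glycolysis or in the fate of pyruvate. The other 20 belong to the hypoxia-inducible factor (HIF) pathway or are genes it is known to induce. All 40 were among the 16708 genes listed in at least 1 library. A mean of at least 0.5 RPKM over the 4 libraries was asked of a gene before it was tested, and 39 members were among the 11829 genes that met this limit. RPKM, the unit of the files, scales a gene's reads by gene length and by library total. The remaining member, *EGLN3*, had a mean below the limit.

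Glycolysis breaks glucose down to pyruvate, with hexokinase and phosphofructokinase as its main points of control, and lactate dehydrogenase turns pyruvate into lactate. HIF is a transcription factor made of an alpha subunit (HIF1A or EPAS1) and a beta subunit (ARNT). In the presence of oxygen, prolyl hydroxylases of the EGLN family mark the alpha subunit, the VHL protein binds it and it is degraded. When oxygen is short, the alpha subunit escapes this and HIF binds the promoters of many glycolytic enzymes, of the growth factor gene *VEGFA* and of others.

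BEAS2B is a virus-transformed line of human bronchial epithelial cells, and all 4 libraries come from it, grown in Dulbecco's medium with fetal bovine serum. The 2 sh-Ctrl libraries are from cells given a retrovirus with an shRNA against luciferase, and the 2 sh-QKI libraries from cells given a retrovirus with 1 shRNA against *QKI*. Each arm has a replicate 1 and a replicate 2, and the comparison asked is sh-QKI against sh-Ctrl within each number. The labels name no oxygen level or treatment, and no source says whether separate cultures were used, so the p-values reflect the variation among 4 libraries, part or all of which may be technical. In total RNA of a whole culture, fewer cells of a kind and less RNA per cell cannot be told apart.

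The targets of both shRNAs are shown because they define the arms. The 19 bases below were found in exon 4 of *QKI*, in coding sequence on the plus strand of chromosome 6 (GRCh37, chr6:163956115-163956133), and in no other gene's transcripts, while those of the control shRNA matched 0 genes.
sh-QKI target: gaagagagcagttgaagaa
sh-Ctrl target: cgtacgcggaatacttcga

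*QKI* itself was at 8.94 and 14.6 RPKM in sh-Ctrl replicates 1 and 2, and at 2.52 and 3.85 RPKM in sh-QKI replicates 1 and 2. Both sh-QKI libraries lay below both sh-Ctrl libraries. The log2 fold change was -1.72 (standard error 0.13), with a limma adjusted p of 3.16e-33 when the replicate number was a block in the fit and of 1.00 when it was not. With the block but no limit on RPKM the call was lost as well (limma adjusted p = 0.0669), while voom on recovered reads with the block gave 5.32e-08. The totals recovered from the RPKM values were 20052951 to 34862008 reads, with both libraries of replicate 2 deeper than both of replicate 1. Of the epithelial markers, *KRT8*, *KRT18*, *KRT19*, *KRT7* and *EPCAM* reached 0.5 RPKM in at least 1 library and *CDH1* did not (5 of 6 in all). Of the other marker lists, *CD14* and *CD68* (2 of 5 leukocyte markers) and *COL1A1* and *PDGFRB* (2 of 5 fibroblast markers) reached it, and 0 endothelial, 0 basal and 0 ciliated or secretory markers did.

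No member's mRNA level was called different between sh-QKI and sh-Ctrl, which does not show that the levels were equal. By limma on log2(RPKM + 0.5) with the replicate number as a block, 101 of 11829 genes (0.854%) differed between the arms at an adjusted p under 0.05, and 0 of the 39 members were among them. At an unadjusted p under 0.05 there were 727 genes (6.15%) and 1 member, *P4HA1*. By voom of limma on whole reads recovered from the RPKM values, 50 genes (0.423%) and 0 members were called, and 709 genes (5.99%) and 1 member, *CA12*, had an unadjusted p under 0.05. Without the block, limma called 0 genes and 0 members, with 13 genes and 0 members at an unadjusted p under 0.05. With the block and each library centred within bins of GC content (below), limma called 0 members. An unadjusted p under 0.05 was then reached by 8 of 39 members (20.5%) and by 13.3% of all genes.

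On the log2(RPKM + 0.5) scale, which understates the differences of low genes, no tested member's fitted difference reached 2-fold. The median log2 fold change was 0.03 over the 39 members and 0.03 over all tested genes. Single members ran from -0.30 to 0.26, and their 95% intervals from -0.60 at the lowest end to 0.50 at the highest, so that a 2-fold change on this scale lay outside all 39 intervals. For the 20 glycolysis genes the intervals ran from -0.41 to 0.41. The fit with the block leaves 1 residual degree of freedom per gene, and limma gave a gene's own residual no weight. The error of these intervals is thus that of genes of similar RPKM, not a member's own spread between the numbers. The same error enters the p-values. For *ADM*, the interval ran from -0.04 to 0.41, while the values within the numbers were -0.13 and 0.50. A ratio of group means over 2 was found for 68 of 11955 genes (0.569%) and for 0 members. By voom on recovered reads, *CA9* differed by -0.42 and *CA12* by -0.38, against -0.30 and -0.25 in the main fit. *P4HA1* differed by 0.25 by voom, against 0.26.

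The members also showed no common direction. The sh-QKI library was the higher within both replicate numbers for 14 of 39 members (35.9%, against 31.7% of all tested genes) and the lower within both for 7 members (17.9%, against 16.6%). The sign differed between the numbers for the others. The libraries of the arms did not overlap for 3 members, *VEGFA*, *CA12* and *ANKRD37* (7.69%, against 8.60% of all tested genes). Across the 39 members the difference within replicate 1 and that within replicate 2 had a Pearson r of 0.16 and a Spearman rho of 0.10, as a description over genes that share the same 4 libraries.

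**Figure D1:**
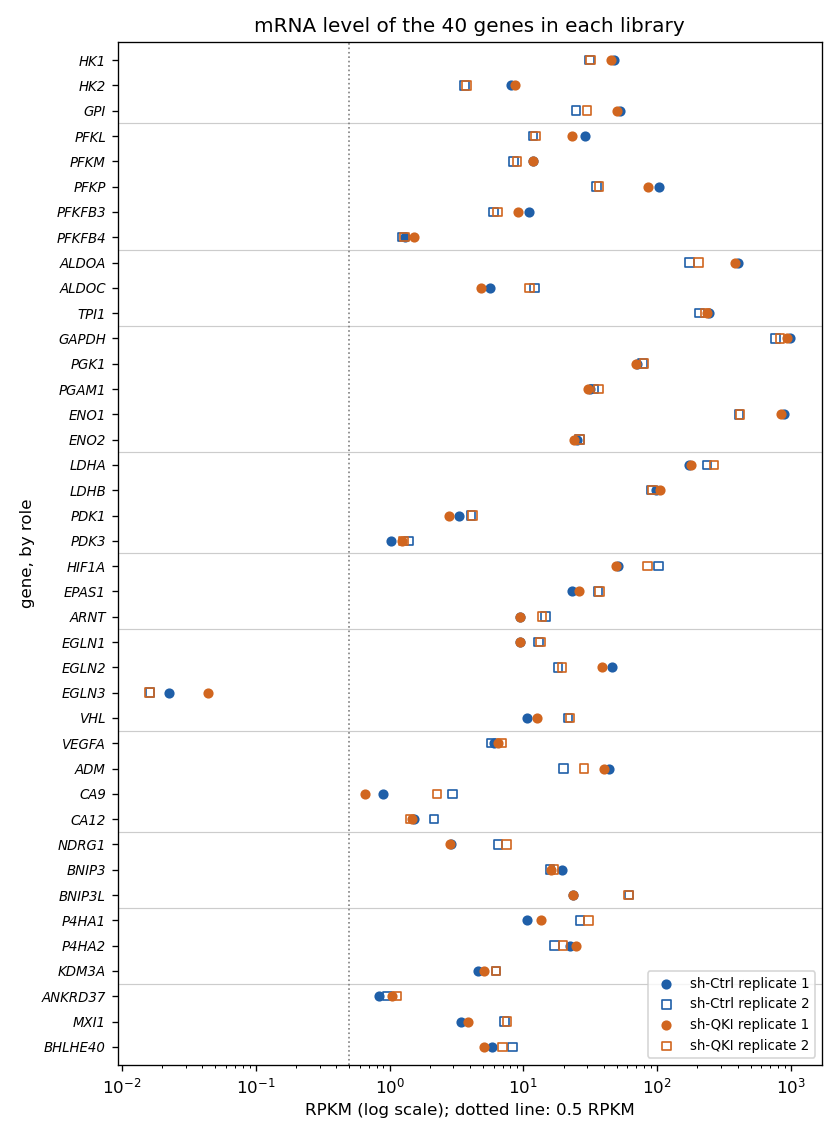
mRNA level of each of the 40 genes in the 4 libraries, as RPKM on a log scale, with sh-Ctrl in blue and sh-QKI in orange, replicate 1 as filled circles and replicate 2 as open squares. The arms of a number lie close together while the numbers of an arm often lie apart, and *EGLN3* alone is left of the dotted line at 0.5 RPKM.

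**Figure D2:**
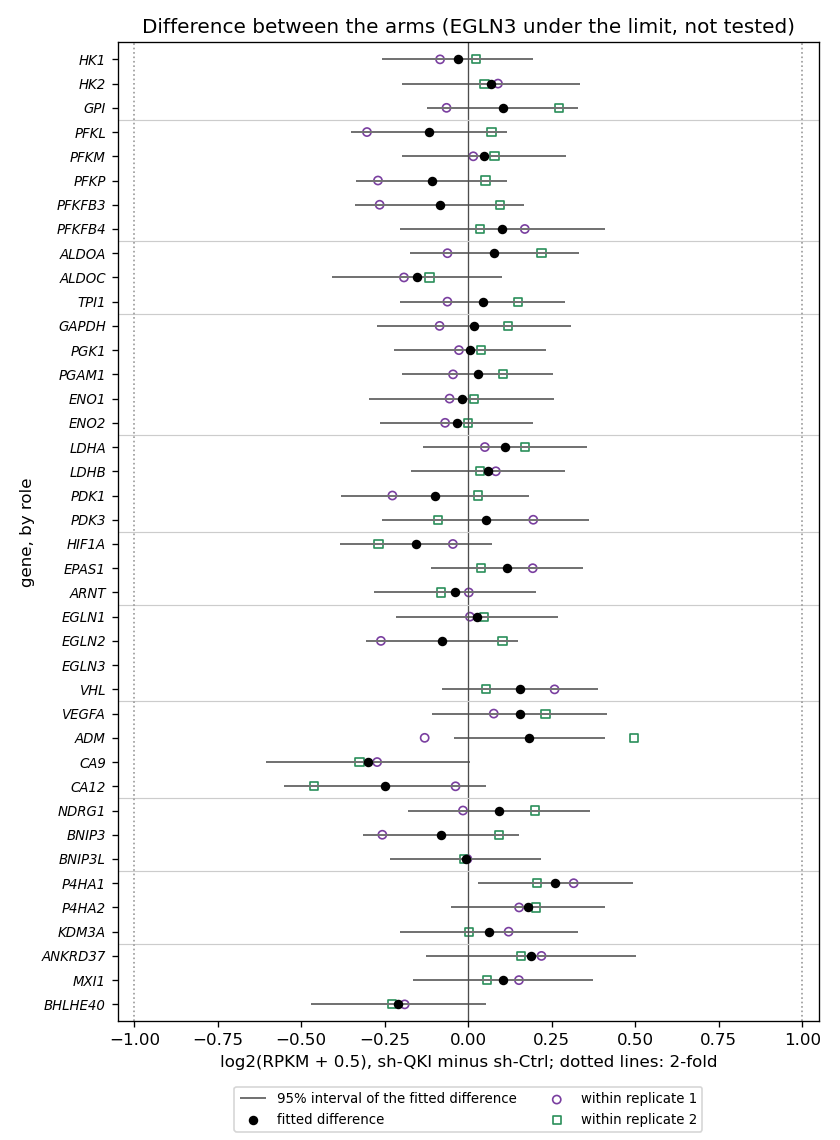
Difference between sh-QKI and sh-Ctrl on the log2(RPKM + 0.5) scale for the 39 tested genes, fitted over both replicate numbers (black, with the 95% interval) and within each number (open symbols). All intervals lie inside the dotted lines at 2-fold, and only that of *P4HA1* leaves out 0.

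Glucose enters the pathway through the hexokinases HK1 and HK2, whose product glucose-6-phosphate isomerase (GPI) turns into fructose-6-phosphate. *GPI* was at 52.6 and 24.7 RPKM in sh-Ctrl replicates 1 and 2, and at 50.2 and 29.97 RPKM in sh-QKI replicates 1 and 2. Its 2 arms overlapped, and within both arms replicate 1 was the higher. The log2 fold changes between the arms were -0.03 for *HK1*, 0.07 for *HK2* and 0.10 for *GPI*, with standard errors of 0.12, 0.14 and 0.12. Of the hexokinase RPKM in a library, *HK1* held 83.7% to 89.3% and *HK2* 10.3% to 15.9%.

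Phosphofructokinase-1 makes fructose-1,6-bisphosphate and is encoded by *PFKL*, *PFKM* and *PFKP*, while *PFKFB3* and *PFKFB4* encode enzymes that set the level of its activator fructose-2,6-bisphosphate. *PFKP* was at 104 and 35.4 RPKM in the sh-Ctrl libraries and at 85.7 and 36.7 RPKM in the sh-QKI libraries (replicates 1 and 2). The sh-QKI library was the lower in replicate 1 and the higher in replicate 2, and the same held for *PFKL* and *PFKFB3*. The 5 genes had log2 fold changes between -0.12 (*PFKL*) and 0.10 (*PFKFB4*). *PFKFB3* held 83.3% and 62.4% of the RPKM of the 4 *PFKFB* genes in sh-Ctrl and 75.9% and 64.3% in sh-QKI, a difference of -7.44 percentage points in replicate 1 and 1.93 in replicate 2. *PFKP* held 63.2% to 71.8% of the phosphofructokinase-1 RPKM of a library, a share that rests on the gene lengths behind the RPKM. Those lengths were 0.434 times the annotated exons for *PFKP* and 1.82 times for *PFKL*. *PFKL* had more recovered reads than *PFKP* in every library, for example 9416 against 7011 in sh-Ctrl replicate 1. Which of the 2 is the more abundant is thus uncertain.

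Aldolase splits the 6-carbon sugar and triosephosphate isomerase (TPI1) interconverts the products. *ALDOA* was at 402 and 174 RPKM in sh-Ctrl and at 385 and 203 RPKM in sh-QKI (replicates 1 and 2), with overlapping arms, and held 93.5% to 98.7% of the aldolase RPKM. *ALDOC*, which encodes the aldolase best known from brain, was at 5.64 and 12.1 RPKM in sh-Ctrl and at 4.87 and 11.2 RPKM in sh-QKI. It was lower in sh-QKI within both numbers and had the largest difference of the 20 glycolysis genes, at -0.15 (standard error 0.13, limma adjusted p = 0.999).

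The energy-yielding steps run from glyceraldehyde-3-phosphate dehydrogenase (GAPDH) and phosphoglycerate kinase (PGK1), which forms ATP, over phosphoglycerate mutase (PGAM1) to enolase. *GAPDH* was the most abundant member, at 984 and 765 RPKM in sh-Ctrl and 927 and 831 RPKM in sh-QKI (replicates 1 and 2). The sh-QKI values lay between the sh-Ctrl values. The 5 genes of this group had log2 fold changes between -0.04 (*ENO2*) and 0.03 (*PGAM1*), with all 95% intervals inside -0.30 and 0.31. *ENO1* held 92.7% to 95.1% of the enolase RPKM. *GAPDH*, *PGK1*, *PGAM1*, *ENO1*, *TPI1*, *ALDOA* and *LDHA* have near-identical processed pseudogenes and ambiguously aligned reads were left out, so their levels are uncertain.

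Pyruvate is turned into lactate by lactate dehydrogenase or enters mitochondria, where the kinases PDK1 and PDK3 hold back its oxidation. *LDHA* was at 173 and 236 RPKM in sh-Ctrl and at 179 and 266 RPKM in sh-QKI (replicates 1 and 2). Its sh-QKI value was the higher within each number, by 0.05 and 0.17 on the log2 scale, while the arms overlapped. The fitted differences were 0.11 for *LDHA*, 0.06 for *LDHB*, -0.10 for *PDK1* and 0.05 for *PDK3*, with limma adjusted p of 0.999 for each. *LDHA* held 63.2% to 74.3% of the lactate dehydrogenase RPKM.

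Of the HIF alpha subunits, *HIF1A* was at 51.0 and 103 RPKM in sh-Ctrl and at 49.3 and 85.0 RPKM in sh-QKI (replicates 1 and 2). It was lower in sh-QKI within both numbers, by 0.05 and 0.27, but the arms overlapped (fitted difference -0.16, standard error 0.12, limma adjusted p = 0.999). *EPAS1*, which encodes HIF-2 alpha, was at 22.9 and 36.1 RPKM in sh-Ctrl and at 26.3 and 37.1 RPKM in sh-QKI, higher in sh-QKI within both numbers (fitted difference 0.12). The share of *HIF1A* in the summed RPKM of *HIF1A*, *EPAS1* and *HIF3A* was therefore lower in sh-QKI within both numbers, by 3.72 and 4.32 percentage points, at 69.0% and 73.9% in sh-Ctrl and 65.2% and 69.6% in sh-QKI. The shares of the arms overlapped, and this share was given no test. *ARNT*, the beta subunit, was at 9.46 and 14.6 RPKM in sh-Ctrl and at 9.48 and 13.8 RPKM in sh-QKI, a difference of -0.04.

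Among the oxygen sensors, *EGLN1* was at 9.46 and 13.0 RPKM in sh-Ctrl and at 9.49 and 13.5 RPKM in sh-QKI (replicates 1 and 2), and *EGLN2* at 46.2 and 18.1 RPKM in sh-Ctrl and at 38.5 and 19.5 RPKM in sh-QKI. For both genes the arms of a number lay closer together than the numbers of an arm. *EGLN3*, itself a gene known to be induced by HIF, was at 0.022 and 0.016 RPKM in sh-Ctrl and at 0.044 and 0.016 RPKM in sh-QKI, from 4, 5, 8 and 5 reads, too few for a comparison. *VHL* was at 10.6 and 21.6 RPKM in sh-Ctrl and at 12.8 and 22.4 RPKM in sh-QKI, with a fitted difference of 0.16 (standard error 0.12) and overlapping arms.

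**Figure D3:**
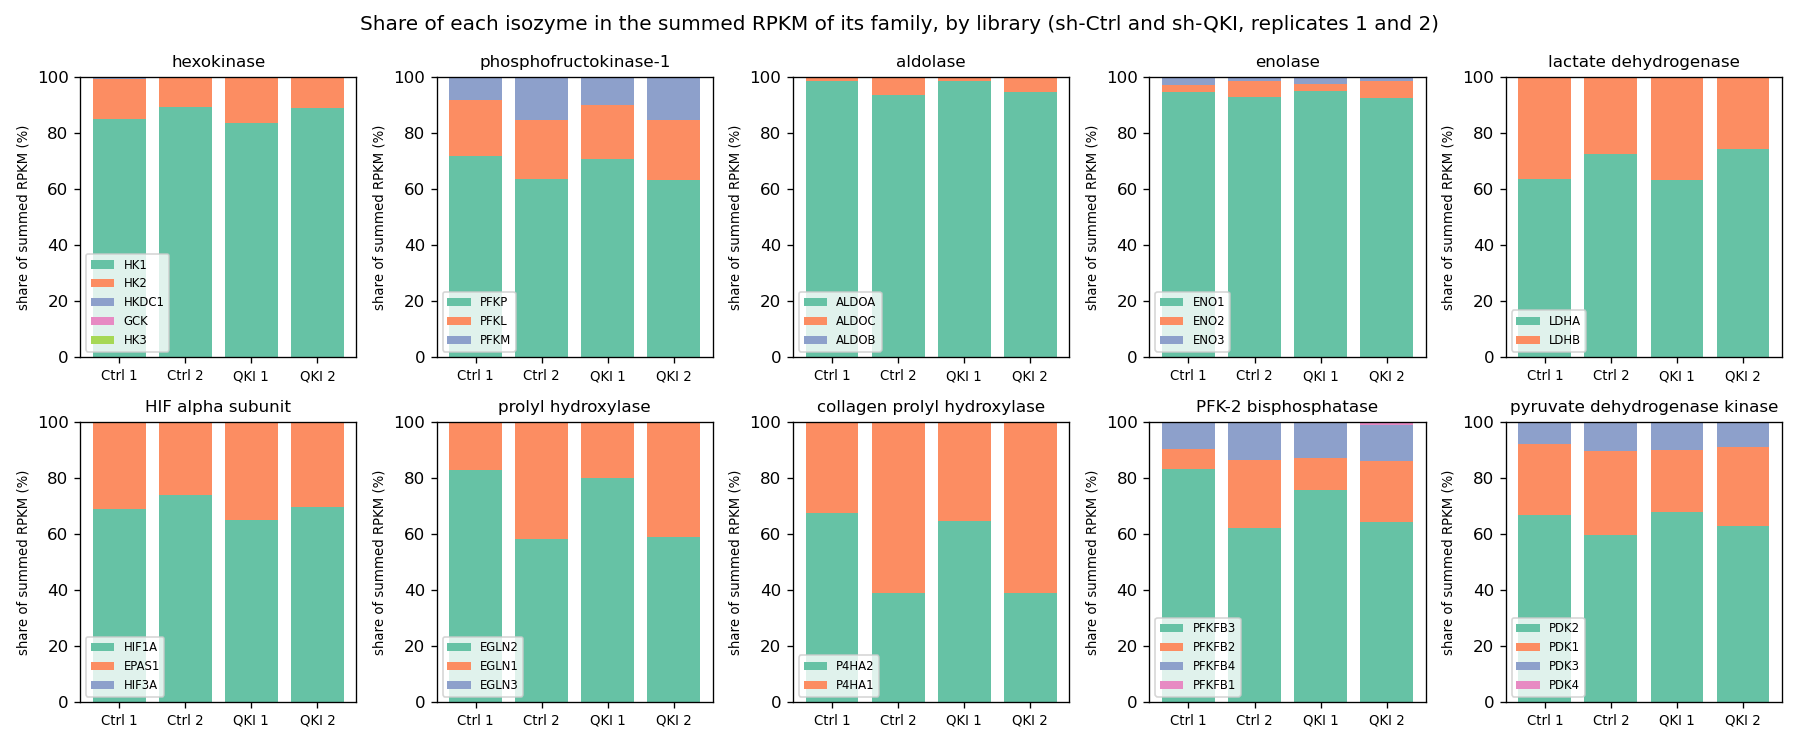
Share of each gene in the summed RPKM of its enzyme or subunit family, in percent, for the 4 libraries and 10 families. The collagen prolyl hydroxylase family here sums *P4HA1* and *P4HA2* only. All shares rest on the gene lengths behind the RPKM, which differed from the annotated exons. The largest gap between the arms within a number is that of *PFKFB3* in replicate 1 (-7.44 percentage points), and *EGLN2* and *P4HA2* hold less of their family in both libraries of replicate 2 than in those of replicate 1.

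The genes that HIF is known to induce held the 3 members with the smallest unadjusted p between the arms, *P4HA1*, *CA9* and *CA12*. Their promoters are shown for that reason, with the core letters that HIF binds marked. Most other members with a promoter entry hold the core as well. The 300 bases run from 250 before to 50 after the start of transcription (RefSeq, GRCh38.p14) and are printed 5′ to 3′ on the strand of the gene. Capitals mark ACGTG or GCGTG, or the same letters read on the other strand, CACGT or CACGC. *P4HA1* (minus strand, chr10:73096817-73097116) holds 1 core at position -86, *CA9* (plus strand, chr9:35673678-35673977) 1 at -18 and *CA12* (minus strand, chr15:63381797-63382096) 2 at -234 and 40, each given by its first base, with the start of transcription as 1.
P4HA1 promoter: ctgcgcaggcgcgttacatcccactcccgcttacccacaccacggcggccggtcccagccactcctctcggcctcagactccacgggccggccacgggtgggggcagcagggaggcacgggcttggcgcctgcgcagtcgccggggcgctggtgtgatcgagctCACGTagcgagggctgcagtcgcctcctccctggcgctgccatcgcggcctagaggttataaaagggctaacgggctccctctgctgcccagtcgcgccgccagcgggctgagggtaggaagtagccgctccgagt
CA9 promoter: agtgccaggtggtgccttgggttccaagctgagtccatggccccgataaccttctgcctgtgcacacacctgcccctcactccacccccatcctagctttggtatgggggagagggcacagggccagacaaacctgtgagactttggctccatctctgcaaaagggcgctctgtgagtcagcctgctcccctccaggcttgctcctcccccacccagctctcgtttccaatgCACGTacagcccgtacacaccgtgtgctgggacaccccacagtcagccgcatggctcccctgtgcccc
CA12 promoter: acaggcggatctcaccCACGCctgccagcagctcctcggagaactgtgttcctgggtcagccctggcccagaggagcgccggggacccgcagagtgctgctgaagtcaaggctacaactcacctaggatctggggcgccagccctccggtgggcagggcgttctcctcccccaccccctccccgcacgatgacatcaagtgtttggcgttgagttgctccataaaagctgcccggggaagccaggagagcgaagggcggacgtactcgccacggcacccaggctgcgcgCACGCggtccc

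The core stood in 42 of the 63 RefSeq promoters of the members (66.7%), and in 48.4% of all 35116 promoters. By gene, 32 of the 36 members with a promoter entry had it in at least 1 promoter (88.9%), against 52.4% of 27305 genes. These 27305 are all genes with an entry, whether or not they met the RPKM limit here. The share among tested genes was not counted, so these values do not set the members apart from other expressed genes. Overlapping matches were counted, and a gene can have several promoters, so the shares by gene also move with the number of promoters. A match is no sign of binding. *BNIP3L*, *NDRG1*, *VEGFA* and *VHL* had no entry.

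*P4HA1* (ENSG00000122884, GRCh37 chr10:74766975-74856732) encodes a catalytic subunit of collagen prolyl 4-hydroxylase. It was at 10.7 and 26.6 RPKM in sh-Ctrl and at 13.5 and 30.7 RPKM in sh-QKI (replicates 1 and 2). The sh-QKI library was the higher within both numbers, by 0.32 and 0.21 on the log2 scale, although the arms overlapped. The fitted difference was 0.26 (standard error 0.12, unadjusted p = 0.0277), and with adjustment over all genes tested the limma p was 0.635. *P4HA2*, which encodes another catalytic subunit, was at 22.4 and 17.1 RPKM in sh-Ctrl and at 24.9 and 19.8 RPKM in sh-QKI. It was higher in sh-QKI within both numbers, by 0.15 and 0.20 (fitted difference 0.18, standard error 0.12, limma adjusted p = 0.999). *KDM3A*, the histone demethylase of this group, differed by 0.06.

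*CA9* and *CA12* encode carbonic anhydrases of the cell surface that help to control pH. *CA9* (ENSG00000107159, GRCh37 chr9:35673925-35681156) was at 0.892 and 2.95 RPKM in sh-Ctrl and at 0.652 and 2.26 RPKM in sh-QKI (replicates 1 and 2), from 48, 275, 36 and 211 reads. It was lower in sh-QKI within both numbers, but replicate 2 of sh-QKI lay above replicate 1 of sh-Ctrl (fitted difference -0.30, standard error 0.16, limma adjusted p = 0.838). *CA12* (ENSG00000074410, GRCh37 chr15:63613577-63674045) was at 1.52 and 2.15 RPKM in sh-Ctrl and at 1.47 and 1.43 RPKM in sh-QKI. Both sh-QKI libraries were the lower, by 0.04 in replicate 1 and 0.46 in replicate 2, so nearly all of the fitted difference of -0.25 (standard error 0.15, adjusted p = 0.999) came from replicate 2.

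*ADM* encodes the vasodilator peptide adrenomedullin. It was at 43.8 and 19.985 RPKM in sh-Ctrl and at 39.96 and 28.4 RPKM in sh-QKI (replicates 1 and 2). Its difference turned between the numbers, from -0.13 in replicate 1 to 0.50 in replicate 2, the widest gap between the numbers among the 39 members tested. *VEGFA* was at 6.09 and 5.80 RPKM in sh-Ctrl and at 6.44 and 6.90 RPKM in sh-QKI. Both sh-QKI libraries lay above both sh-Ctrl libraries, with a fitted difference of 0.15 (standard error 0.13, limma adjusted p = 0.999).

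The stress and mitophagy genes *NDRG1*, *BNIP3* and *BNIP3L* differed by 0.09, -0.08 and -0.01 between the arms. *BNIP3L*, which encodes a receptor for the removal of mitochondria, was at 23.5 and 61.7 RPKM in sh-Ctrl and at 23.5 and 61.2 RPKM in sh-QKI (replicates 1 and 2). Its arms were nearly equal within each number, with a 95% interval of the fitted difference from -0.23 to 0.22.

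Among the transcription-related genes, *BHLHE40*, which encodes a basic helix-loop-helix repressor, was at 5.84 and 8.30 RPKM in sh-Ctrl and at 5.06 and 7.02 RPKM in sh-QKI (replicates 1 and 2). It was lower in sh-QKI within both numbers, by 0.19 and 0.23, with overlapping arms (fitted difference -0.21, standard error 0.13, limma adjusted p = 0.999). *ANKRD37*, which encodes an ankyrin-repeat protein, was at 0.829 and 0.964 RPKM in sh-Ctrl and at 1.047 and 1.13 RPKM in sh-QKI. Its arms did not overlap, and its fitted difference was 0.19 (standard error 0.16, adjusted p = 0.999). *MXI1*, which encodes an antagonist of MYC, differed by 0.10.

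With the block or without it, no gene of the wider pathway was called either. Of 94 further genes of glucose transport, glycolysis, pyruvate oxidation and the HIF pathway, 75 reached the limit of 0.5 RPKM and 0 were called with or without the block, against 0.854% of all tested genes with the block. At an unadjusted p under 0.05 there were 4 with the block, where 6.15% of all tested genes passed, and 0 without it. *PKM2*, the symbol under which the gene of pyruvate kinase M is listed, was at 715 and 516 RPKM in sh-Ctrl and at 672 and 477 RPKM in sh-QKI (replicates 1 and 2), a difference of -0.10. The 4 genes, named after their values were seen, were *PLOD2* (a lysyl hydroxylase of collagen), *CITED2*, *ARNT2* and *TFRC* (the transferrin receptor). Their log2 fold changes were -0.37, -0.24, 0.39 and 0.28 and their limma adjusted p 0.109, 0.685, 0.321 and 0.418. Without the block limma called 0 of all 11829 tested genes, so that fit could not single out further genes. The further genes were not counted under GC bin centring, which called 441 of 11616 genes between the arms.

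The QKI protein binds ACUAAC and ACUAAU in RNA, and the transcripts of the members were searched for ACTAAC and ACTAAT on the sense strand of the reference transcript of each gene (GRCh37). Of the 39 members tested, 20 held at least 1 motif (51.3%), against 47.6% of 11616 tested genes with a gene model. The median log2 fold change between the arms was 0.05 for the 20 members with a motif and -0.02 for the 19 without, and 0.03 and 0.04 for all genes with and without. Sites in the 3′ UTR of 5 members described above are shown, each as 30 bases with the motif in capitals, because these mRNAs carry the letters that the depleted protein recognizes (for *EPAS1* the first of 2 sites). They are at chr10:74767872-74767901 and chr10:74767499-74767528 (*P4HA1*, minus strand, exon 15), chr5:131527708-131527737 (*P4HA2*, minus strand, exon 15), chr15:63615626-63615655 (*CA12*, minus strand, exon 11), chr14:62214915-62214944 (*HIF1A*, plus strand, exon 15) and chr2:46612118-46612147 (*EPAS1*, plus strand, exon 16).
P4HA1 site 1: agtttacaattgACTAACactccatgattg
P4HA1 site 2: ataaactaggacACTAACtgggttccatgt
P4HA2 site: ttttgaacttttACTAATagaatgagagta
CA12 site: tggggataggtaACTAATcagaataataat
HIF1A site: gttggatctaacACTAACtgtattgttttg
EPAS1 site 1: acaactgtccatACTAACaagtttggtgca

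The 5 genes shown did not share a direction: *P4HA1*, *P4HA2* and *EPAS1* had positive and *CA12* and *HIF1A* negative differences, and none was called. They are only some of the members with a site in the 3′ UTR, which also include *VHL*, *LDHA*, *MXI1*, *HK1* and *BNIP3L*. The members with the most motifs are not shown either. These are *PDK1* (8 motifs, log2 fold change -0.10) and *EGLN1* (3 motifs, 0.03), all in the 3′ UTR.

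The libraries numbered 2 and 1 differed in far more genes than the arms did. In the same fit, the replicate number was called for 8383 of 11829 genes (70.9%; 35.2% higher and 35.7% lower in number 2) and for 27 of 39 members (69.2%; 15 higher and 12 lower). The members' share was thus near that of all genes. Of the 20 glycolysis genes 3 were higher and 9 lower in number 2, and of the 19 hypoxia response genes tested 12 were higher and 3 lower. The 2 sets also differed in GC content, with medians of 54.0% for the glycolysis genes and 46.4% for the hypoxia response genes. How GC content relates to the numbers is given below. Cell type markers moved with the number. The summed RPKM of the 6 epithelial markers was 683 and 649 in the libraries numbered 1 (sh-Ctrl and sh-QKI) and 216 and 255 in those numbered 2, with *KRT7* at 264 and 233 against 20.7 and 23.8. That of the fibroblast markers was 58.6 and 61.5 against 28.9 and 41.3, nearly all of it *COL1A1* and *PDGFRB*. That of the leukocyte markers was 18.2 and 15.6 against 21.4 and 17.1, with *CD14* at 0.815 and 0.794 against 5.22 and 4.84 and *PTPRC* at or near 0. The part of these markers in the members' differences was not tested. Neither the labels nor the methods say what a number stands for, and the methods name 2 read lengths without tying one to a number.

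Among the glycolysis genes, *PFKP* differed by -1.37, *HK2* and *PFKL* by -1.07, *ENO1* and *ALDOA* by -1.06 and *GPI* by -0.90 between number 2 and number 1 on the log2(RPKM + 0.5) scale, while *ALDOC* differed by 1.08, *LDHA* by 0.51 and *PDK1* by 0.39. *ENO1*, for example, was at 882 and 849 RPKM in the libraries numbered 1 and at 411 and 416 RPKM in those numbered 2. Both arms thus gave nearly the same value for a number, and the numbers did not overlap. *GAPDH*, *PGK1*, *PGAM1*, *TPI1*, *ENO2*, *LDHB*, *PDK3* and *PFKFB4* were not called, with differences between -0.26 and 0.18.

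Among the hypoxia response genes, *BNIP3L* differed by 1.37, *CA9* by 1.28, *P4HA1* by 1.21, *NDRG1* by 1.15, *MXI1* by 0.94 and *HIF1A* and *VHL* by 0.89, all higher in number 2. *EGLN2* differed by -1.15, *ADM* by -0.80 and *P4HA2* by -0.35. The share of *P4HA1* in the pair with *P4HA2* therefore differed between the numbers. *P4HA1* held 32.4% and 35.1% of their summed RPKM in the libraries numbered 1 and 60.8% in both libraries numbered 2. Which of the 2 stands higher rests on the gene lengths behind the RPKM. *P4HA2* had more recovered reads than *P4HA1* in every library, for example 7860 against 4513 in sh-Ctrl replicate 2. Over the 39 members the difference between the numbers in sh-Ctrl and that in sh-QKI had a Pearson r of 0.97, as a description over genes of the same libraries.

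GC content moved with this difference. Across 11616 tested genes with a gene model, the Pearson r between the GC content of the reference transcript and the difference between number 2 and number 1 was -0.69, and over the 39 members it was -0.54, both descriptions across genes that share the libraries. The median difference went from 0.80 in the tenth of genes with the lowest GC content to -0.86 in the tenth with the highest. *BNIP3L* (37.4% GC) and *PFKL* (63.4% GC) differed in the direction of their GC content, by more than these medians. *CA9* (59.9% GC), *ALDOC* (55.5%) and *NDRG1* (54.9%), with a GC content above the members' median of 50.5%, were higher in number 2. With each library centred within 20 bins of GC content, an alternative chosen after seeing the data, 33 of 39 members differed between the numbers (17 higher and 16 lower, against 63.7% of all genes). Of the glycolysis genes 5 were then higher and 12 lower, and of the hypoxia response genes 12 higher and 4 lower. *BNIP3L* still differed by 0.64 and *PFKL* by -0.27. The part of GC content in the difference between the numbers was not tested.

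**Figure D4:**
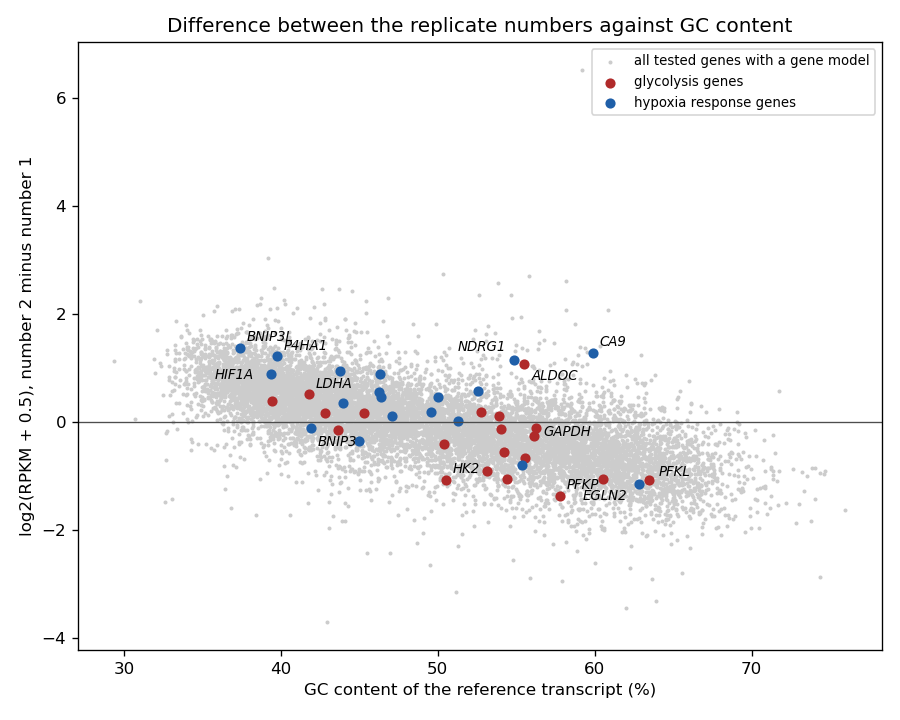
Difference between the libraries numbered 2 and 1, on the log2(RPKM + 0.5) scale, against the GC content of the reference transcript in percent, for all tested genes with a gene model (grey), glycolysis genes (red) and hypoxia response genes (blue). The grey points fall from left to right, with a Pearson r of -0.69, and *CA9*, *ALDOC* and *NDRG1* stand above them.

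Between the arms, GC content and the difference had a Pearson r of 0.10 across all genes and -0.23 over the members. With the same GC bin centring, 441 of 11616 genes (3.8%) were called between the arms and 0 members. An unadjusted p under 0.05 was reached by 1545 genes (13.3%) and by 8 of 39 members (20.5%), and the smallest limma adjusted p was 0.0778, for *P4HA1* (log2 fold change 0.22).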

How the data were processed

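RNA-Seq libraries (TruSeq kit, total RNA) of 2 sh-Ctrl and 2 sh-QKI samples were read on an Illumina GAII, single-end. The authors mapped reads to hg19 and to junctions of every exon with each downstream exon of its gene with Bowtie, whose version is not given in the sources, and dropped ambiguous reads. From these the authors computed RPKM, which were deposited as a table for each library. A gene absent from a table was given 0, and no table lists a 0.

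Whole reads were recovered from the RPKM for 100% of 61702 values (relative tolerance 1e-11). Reads summed over genes came to 1.35 to 1.53 times the library totals, so a read may count more than once, within a gene or between genes. Which of these holds was not tested, and the reads given for a gene may differ from those sequenced. The gene length behind the RPKM differed from the annotated exons, by a median factor of 1.25 over genes and 1.50 over the members, with members ranging from 0.181 (*PDK3*) to 3.86 (*ADM*), which bears on levels and shares set between genes.

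The 40 members and all other lists were chosen with earlier results of these data known. Values in every library are given by rule for members called, the 8 tested members with the largest absolute log2 fold change, the HIF subunits, the EGLN genes and *VHL*, the most abundant member of each role, members under the limit and *QKI*, and for further genes if called and for pyruvate kinase M. Other genes with values in every library (*ALDOC*, *VEGFA*, *ENO1*) were chosen after their values were seen.

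limma 3.58.1 in R 4.3.3 was fitted on log2(RPKM + 0.5) with a mean-variance trend, arm and replicate number as terms, over genes whose mean reached 0.5 RPKM. Tests were two-sided, and a gene was called at a Benjamini-Hochberg adjusted p under 0.05. Fold changes on this scale understate those of low genes. The number entered as a block because the comparison is within numbers. The numbers of the 2 arms deviated together (r = 0.953 across genes), but no label ties a number to a culture or day. On simulated reads for this comparison, with 200 of 11766 genes changed, the fit with the block called 56.7% of genes changed 1.5-fold, 98.5% of those changed 2-fold and 100% of those changed 4-fold, and 30 of 11566 unchanged genes. The simulated reads had a spread set in advance and the same difference between the numbers in both arms. In the data that difference had a standard deviation across genes of 0.81 in sh-Ctrl and 0.66 in sh-QKI. The shares called thus hold for the simulated setting and do not give the power of these libraries. Alternatives were other pseudocounts, limits and scalings, voom on recovered reads, no block and leaving out each library. Gene models, transcripts and motifs came from GENCODE lifted to GRCh37 (98.2% of tested genes matched) and promoters from RefSeq GRCh38.p14, which were matched by symbol. Tables and plots were made with Python 3.11.15 (pandas 2.3.3, numpy 2.4.6, matplotlib 3.10.9).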

Additional observations from a re-analysis of the deposited data

How the results depend on the processing

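The count of 0 members called between the arms held under every alternative that gave a test. The count over all genes, 101 with the replicate block, was by limma 0 with no replicate block (13 at an unadjusted p under 0.05), 0 with no expression limit (978 at that p), 50 by voom on recovered reads and 441 with GC bin centring, which was chosen after seeing the data. The cause of these changes was not tested. For *QKI* the log2 fold change of -1.72 was past the threshold in the fit with the block, but not with no expression limit (limma adjusted p = 0.0669) or no replicate block (1.00). Leaving out 1 library with the block kept leaves no residual degrees of freedom, so it gives values only: the value is then that of the other number. The median log2 fold change of the members was 0.051 without either library of replicate 1 and -0.038 without either library of replicate 2, and *QKI* was at -1.80 and -1.64. For 9 of 39 members the value moved by more than its standard error. Left out without the block, single libraries gave 0 to 3 genes called, 0 members called and medians of -0.082 to 0.032, the lowest without sh-QKI replicate 2. In these fits the lone library of an arm is assumed to vary like the other arm. Between the numbers, voom put the median of all genes at 0.16 against 0.00 on the RPKM scale, and 29 members were called (18 higher and 11 lower in number 2) against 27 (15 and 12). Depth limits *EGLN3*, with 4 to 8 reads a library, and *CA9*, with 36 reads in sh-QKI replicate 1.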
